A study of Mus musculus with 6 samples.

Results

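The genes described here encode regulators of G protein signalling (RGS proteins): Rgs2, Rgs3, Rgs4, Rgs5, Rgs7, Rgs8, Rgs10, Rgs12, Rgs16 and Rgs19. These 10 of the 22081 genes in the table were taken by symbol and were selected on earlier results of the same comparison, in which Rgs8 stood out, so their differences between groups are given as a description, and a call made for a member on these libraries is no independent test. Muscle stem cells (MuSCs), which rebuild skeletal muscle after injury, were taken from adult C57BL/6 mice and profiled by RNA-seq in 3 Control libraries, whose titles read WT, and 3 Taf4asKO libraries. Taf4asKO mice carried floxed Taf4a alleles and Pax7CRE-ERT, a tamoxifen-inducible Cre recombinase under the MuSC gene Pax7, which removes exons of Taf4a after tamoxifen. Controls were littermates that also carried floxed Taf4a, with or without the Cre allele, and the labels do not give which library had it. The deletion is thus limited to Pax7-expressing cells, while any other cell in a sort keeps the gene. MuSCs were freshly isolated by fluorescence-activated sorting for Integrin-a7 or a Pax7-zsGreen reporter and against Sca1, CD45 and CD31, with 90000 cells and 10 ng of RNA per library. The labels do not say whether a library pooled mice, so the spread between replicates may in part be technical.

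Heterotrimeric G proteins are switched on when an activated receptor makes the alpha subunit exchange GDP for GTP, and are switched off when GTP is hydrolysed. RGS proteins bind the active alpha subunit through a shared RGS domain and speed up this hydrolysis, so that signalling from a receptor ends sooner. The family is grouped by sequence into R4 (mostly small proteins that act on Gi and Gq class subunits), R7 (which bind the G beta 5 subunit), R12 and RZ members. In muscle, Rgs5 is best known from the mural cells of small vessels.

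Rgs8 was lower in the Taf4asKO libraries by a mean ratio of 19.0, and its chromosomal neighbour Rgs16 was lower by a ratio of 2.45. Rgs19 was lower too, whereas Rgs5, the member with the highest level, was higher by a ratio of 1.98. The other 6 members lay between a log2 fold change of -0.94 for Rgs7 and 0.61 for Rgs10 and were not called. All 10 members passed the filter on low values (a mean normalized count of at least 5). A gene is called here at an adjusted p under 0.05 and a fold of at least 1.3 (limma, 18562 genes tested). Levels are given throughout as normalized counts, inferred to be reads divided by a size factor of the library. By the threshold 3 members were called lower and 1 higher, beside 6.71% of all genes tested called lower and 5.93% called higher. Nothing is read from these shares, since the members were chosen by this contrast. The values of the 3 Control libraries and those of the 3 Taf4asKO libraries did not overlap for 7 members (4 lower, 3 higher), beside 33.0% of all genes tested in either direction. The median log2 fold change of the members was -0.13, and that of all genes tested was 0.00403.

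**Figure D1:**
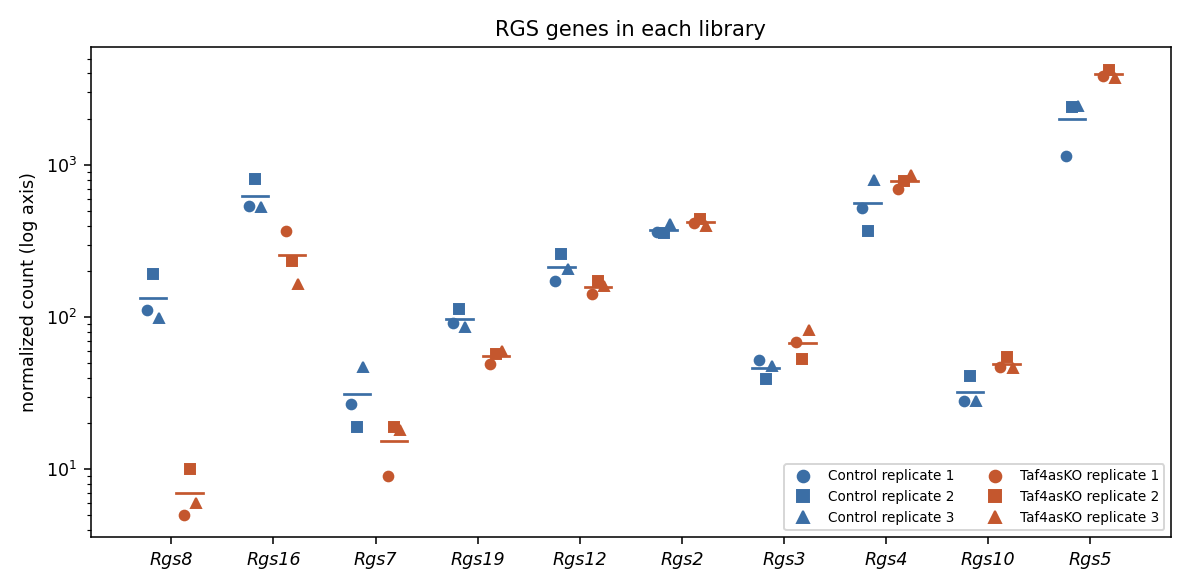
Normalized count (log axis) of the 10 RGS genes in each library, ordered from the lowest to the highest log2 fold change, with 1 symbol per replicate number, blue for Control and red for Taf4asKO, and a line at each group mean. Rgs8 lies between 98 and 191 in Control and between 5 and 10 in Taf4asKO, while for Rgs5 all Taf4asKO libraries lie above 2426, the highest Control value.

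The members sit on 5 chromosomes, and 6 of them on chromosome 1, where Rgs8 and Rgs16 form 1 pair of neighbours and Rgs5 and Rgs4 another. The 250 bases before the annotated start site of these 4 genes are shown because the study deals with TFIID, which recognises core promoters, and with the promoter factors NF-Y and SP1. The sequences are those of RefSeq on GRCm38.p6 (mm10), read 5′ to 3′ on the strand of the gene and ending at the base before the start site. They come from chr1:153652787-153653036 (plus strand) for Rgs8, chr1:153740103-153740352 (plus) for Rgs16, chr1:169655251-169655500 (plus) for Rgs5 and chr1:169747643-169747892 (minus) for Rgs4. Capitals mark a CCAAT box (CCAAT, the NF-Y motif), a GC box (GGGCGG, the SP1 motif) or a TATA box (TATAAA), each searched on both strands.
Rgs8: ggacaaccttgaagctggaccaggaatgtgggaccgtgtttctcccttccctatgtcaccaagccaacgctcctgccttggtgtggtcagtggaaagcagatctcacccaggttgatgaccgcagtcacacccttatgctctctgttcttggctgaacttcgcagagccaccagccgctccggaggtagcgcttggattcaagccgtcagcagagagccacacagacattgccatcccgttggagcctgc
Rgs16: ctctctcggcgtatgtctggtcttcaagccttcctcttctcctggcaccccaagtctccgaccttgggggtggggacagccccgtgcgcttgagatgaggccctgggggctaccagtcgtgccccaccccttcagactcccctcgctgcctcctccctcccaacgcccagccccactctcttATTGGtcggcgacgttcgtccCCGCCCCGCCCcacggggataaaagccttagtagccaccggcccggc
Rgs5: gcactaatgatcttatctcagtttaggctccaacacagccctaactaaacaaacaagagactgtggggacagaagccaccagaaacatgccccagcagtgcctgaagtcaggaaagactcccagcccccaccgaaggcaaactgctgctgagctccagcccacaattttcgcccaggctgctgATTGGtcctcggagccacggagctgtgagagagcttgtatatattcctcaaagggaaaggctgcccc
Rgs4: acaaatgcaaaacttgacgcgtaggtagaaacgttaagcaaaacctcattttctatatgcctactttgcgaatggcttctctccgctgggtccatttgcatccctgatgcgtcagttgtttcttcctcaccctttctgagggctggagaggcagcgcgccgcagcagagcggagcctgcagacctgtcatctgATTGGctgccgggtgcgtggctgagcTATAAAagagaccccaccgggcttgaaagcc

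The window of Rgs8 held none of the 3 motifs. The Rgs16 window held a CCAAT box in reverse orientation that begins 68 bases before the start site, followed by reverse GC boxes at 47 and 42 bases, which overlap each other by 1 base. The neighbours Rgs5 and Rgs4 each had a reverse CCAAT box, at 67 and 57 bases, and Rgs4 also had a TATA box at 31 bases. Rgs8 has 2 further start sites in RefSeq, 12249 and 12648 bases from the gene start in the table, and each of their windows held 1 CCAAT box, at 152 bases (reverse) and 100 bases (forward). RefSeq windows were found for all 10 members (16 windows). Of the windows nearest to each gene start, 4 held a CCAAT box, 5 a GC box and 2 a TATA box. Among all 32851 RefSeq windows of this length, 33.8% held a CCAAT box, 32.7% a GC box and 12.4% a TATA box. A match is a run of letters and not a measured binding site, and a window without one says nothing about binding of the factor.

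The R4 member Rgs8, first known from brain and its potassium channels gated by G proteins, lies at chr1:153653025-153700323 (plus strand, protein coding, positions as in the table). Its levels were 111, 191 and 98 in Control replicates 1 to 3 but only 5, 10 and 6 in the Taf4asKO replicates. Every Control value was thus more than 9-fold above every Taf4asKO value. Group means of 133 ± 50.4 and 7 ± 2.65 (SD, n = 3) corresponded to -4.06 on the log2 scale, with an SE of 0.35. It ranged from -4.31 to -3.77 when each library was left out in turn. In such mixed samples fewer cells that express a gene and less RNA per cell cannot be told apart. Of the 9640 exon bases of Rgs8, 70 (0.726%) overlap the antisense gene Gm29529, which was not analysed here.

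Rgs16 (chr1:153740349-153745468, plus strand) is an R4 member known to be induced by G protein signals themselves. It had levels of 534, 812 and 533 in Control and 368, 234 and 165 in Taf4asKO. The groups did not overlap. Its means of 626 ± 161 and 256 ± 103 (SD, n = 3) differed by -1.34 on the log2 scale (SE 0.27). Rgs16 was not called without Taf4asKO replicate 2, where the log2 fold change was -1.31, nor with a variance prior that ignored expression level (no intensity trend). The antisense gene Gm28513 covers 236 of the 2339 exon bases of Rgs16 (10.1%), and had only levels of 2, 6 and 9 in Control and 4, 2 and 2 in Taf4asKO. Whether the counting used the strand is not stated.

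The other R4 members had log2 fold changes above 0. Rgs5, at chr1:169655501-169695813 (plus strand), had levels of 1153, 2403 and 2426 in Control and 3857, 4237 and 3755 in Taf4asKO. Control replicate 1 was far below the other Control libraries, and all Taf4asKO values lay above all Control values. Means of 1994 ± 728 and 3950 ± 254 (SD, n = 3) gave a log2 fold change of 1.06 (SE 0.24). Without Control replicate 1 it was 0.71 and still called. Without Taf4asKO replicate 1, 2 or 3 it stayed between 1.01 and 1.10 but was not called, and the same held under the variance prior without a trend.

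Rgs4, next to Rgs5 at chr1:169741477-169747642 (minus strand), had levels of 522, 368 and 797 in Control and 697, 782 and 859 in Taf4asKO. Control replicate 3 lay within the Taf4asKO range, so the groups overlapped. The log2 fold change of 0.54 (SE 0.23) was not called, but it was called once replicate numbers entered as a block and, at 0.82, without Control replicate 3. It was 0.27 without Control replicate 2. With the block, 3 members were thus called lower and 2 higher. The share of all genes called with the block is not given here, so counts under it, for members or any list, have no such share beside them.

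Rgs2 (chr1:143999338-144004161, minus strand), which acts mainly on Gq, had levels of 362, 359 and 408 in Control and 418, 444 and 395 in Taf4asKO. The groups overlapped, and the log2 fold change of 0.16 (SE 0.11) was the smallest in size among the members. Rgs3 (chr4:62559847-62703018, plus strand), which has long and short isoforms, had levels of 52, 39 and 48 in Control and 69, 53 and 82 in Taf4asKO. Its groups were separated by only 1 normalized count, and the log2 fold change was 0.53 (SE 0.24). Both genes were uncalled in every alternative.

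Rgs7 (chr1:175059087-175492500, minus strand), the R7 member, had levels of 27, 19 and 47 in Control and 9, 19 and 18 in Taf4asKO. Control replicate 2 and Taf4asKO replicate 2 had the same value, and the log2 fold change of -0.94 (SE 0.42) was not called. It was -0.60 without Control replicate 3 and -0.62 without Taf4asKO replicate 1. Of the R12 members, the large scaffold-like Rgs12 (chr5:34949445-35039644, plus strand) had levels of 174, 260 and 207 in Control and 142, 173 and 160 in Taf4asKO. These groups were again 1 normalized count apart, with a log2 fold change of -0.42 (SE 0.17) that was -0.26 without Control replicate 2. The antisense gene Gm43791, not analysed here, overlaps 467 (5.50%) of the exon bases of Rgs12.

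Rgs10 (chr7:128373621-128418173, minus strand), a small R12 member that acts on Gi class subunits, had levels of 28, 41 and 28 in Control and 47, 55 and 46 in Taf4asKO. All Taf4asKO values were above all Control values, and the log2 fold change of 0.61 (SE 0.26) was called only without Control replicate 2, at 0.79. The RZ member Rgs19 (chr2:181688422-181693977, minus strand), also known as GAIP, had levels of 92, 113 and 86 in Control and 49, 57 and 60 in Taf4asKO. The groups were well apart, at means of 97.0 ± 14.2 and 55.3 ± 5.69 (SD, n = 3) and a log2 fold change of -0.79 (SE 0.20). Rgs19 was not called without Control replicate 1 (-0.83) or without Taf4asKO replicate 1, 2 or 3 (-0.71, -0.82 and -0.85).

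Of the 6 R4 members, 2 were called lower and 1 higher, with a median log2 fold change of 0.34. Rgs12 lay below 0 and Rgs10, the other R12 member, above it, and neither was called.

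To compare levels between genes, normalized counts were divided by the exon length in kb. On this scale the Control order was Rgs5 (439 ± 160 per kb, SD, n = 3), Rgs16 (268 ± 68.7), Rgs4 (182 ± 70.2), Rgs2 (104 ± 7.57), Rgs19 (43.5 ± 6.36), Rgs12 (25.2 ± 5.11), Rgs10 (18.9 ± 4.39), Rgs8 (13.8 ± 5.22), Rgs7 (5.15 ± 2.40) and Rgs3 (4.29 ± 0.616). The Control ranges of Rgs5 and Rgs16, of Rgs16 and Rgs4, of Rgs12 and Rgs10, of Rgs10 and Rgs8, and of Rgs7 and Rgs3 overlapped. Within each Control library Rgs5 nevertheless lay above Rgs16, Rgs12 above Rgs10 and Rgs10 above Rgs8, whereas the order of Rgs16 and Rgs4 and that of Rgs7 and Rgs3 changed between libraries. In Taf4asKO, Rgs16 was at 109 ± 44.1 per kb, after Rgs5 (869 ± 55.9), Rgs4 (252 ± 26.2) and Rgs2 (116 ± 6.76), although in Taf4asKO replicate 1 it lay above Rgs2. Rgs8, at 0.726 ± 0.274 per kb, was the lowest of the 10.

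**Figure D2:**
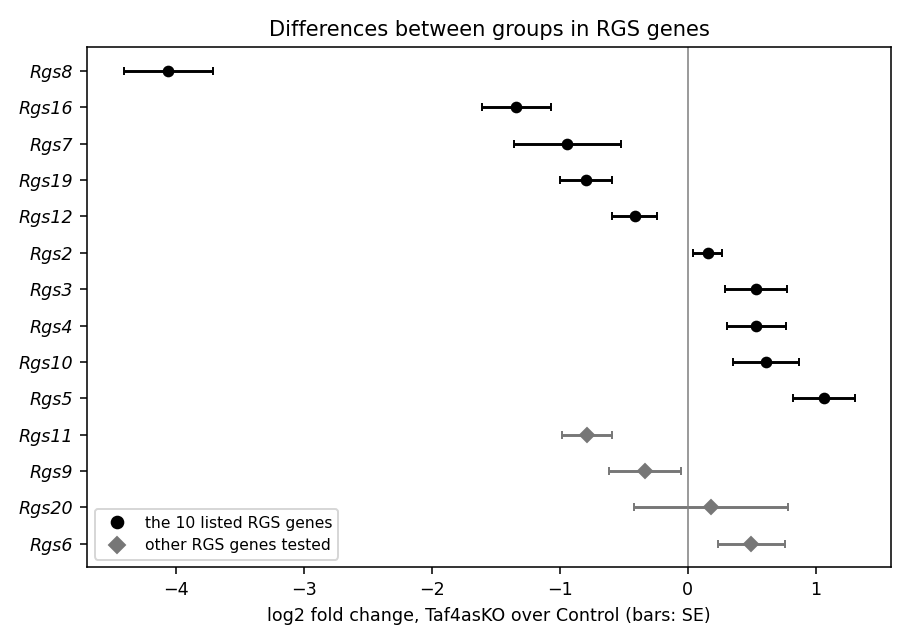
Log2 fold change of Taf4asKO over Control on the log2(value + 1) scale, with bars of 1 SE, for the 10 members (black circles) and the other RGS genes tested (grey diamonds). The members run from -4.06 for Rgs8 to 1.06 for Rgs5, and among the other RGS genes Rgs11 (-0.78) is farthest from 0.

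Of 11 other RGS genes listed, 5 were analysed and 4 passed the filter. Rgs11, an R7 member, fell from levels of 89, 100 and 111 in the Control libraries to 56, 65 and 52. Its groups did not overlap, and the log2 fold change was -0.78 (SE 0.19, limma adjusted p = 0.0266). The call was lost without Control replicate 3 (-0.71) and without Taf4asKO replicate 1 (-0.77), 2 (-0.87) or 3 (-0.71). Over all alternatives the adjusted p ranged from 0.0202 to 0.120.

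The remaining R7 members did not pass the test. Rgs6 had levels of 21, 28 and 25 in Control and 35 in each Taf4asKO library (log2 fold change 0.50, limma adjusted p = 0.241). Rgs9, known from photoreceptors and striatum, had levels of 61, 38 and 68 in Control and 38, 38 and 54 in Taf4asKO (-0.33, adjusted p = 0.480). The RZ member Rgs20 had levels of 22, 3 and 9 against 11, 13 and 7 (0.18, adjusted p = 0.878), with a 95% interval from -1.16 to 1.53. Rgs17 stayed below the filter, with 0, 1 and 0 in Control and 0, 8 and 7 in Taf4asKO.

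R7 proteins are stable only when bound to G beta 5, and the R7 binding protein holds this pair at the membrane. Gnb5, which encodes G beta 5, had levels of 111, 130 and 119 in Control and 94, 110 and 91 in Taf4asKO (log2 fold change -0.29, limma adjusted p = 0.292). Rgs7bp, which encodes the R7 binding protein, rose from 40, 38 and 43 to 66, 72 and 98. This was a log2 fold change of 0.93 (SE 0.23, adjusted p = 0.0255) without overlap between the groups. The call was lost without Control replicate 1 (0.92) and without Taf4asKO replicate 1 (1.04), 2 (0.98) or 3 (0.76), with an adjusted p from 0.0149 to 0.143 over all alternatives.

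Rgs8 and Rgs16 are separated by 40.0 kb and are both transcribed on the plus strand. The nearest protein-coding gene of the table before Rgs8, Npl, had levels of 15, 12 and 10 in Control and 10, 8 and 10 in Taf4asKO (log2 fold change -0.36, limma adjusted p = 0.567). Dhx9, which encodes an RNA helicase and lies beyond Npl, had levels of 2545, 2736 and 2337 in Control and 2467, 2603 and 2379 in Taf4asKO. The 95% interval of its log2 fold change of -0.03 ran from -0.24 to 0.18, and that of Npl ran from -1.17 to 0.46.

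The further genes of this region named here were chosen after their values were seen. The lincRNA C230024C17Rik (chr1:153721240-153737829), which lies between Rgs8 and Rgs16 on the opposite strand, fell from 19, 24 and 14 normalized counts to 5, 1 and 1 (log2 fold change -2.76, SE 0.54, limma adjusted p = 0.00944). Rgsl1 (chr1:153779381-153844142), an RGS-like gene beyond Rgs16, rose from 1, 5 and 7 to 26, 24 and 27 (2.54, SE 0.52, adjusted p = 0.0121). Rgsl1 was not called without Taf4asKO replicate 1, 2 or 3 (2.53, 2.59 and 2.50), although its values did not overlap in the 6 libraries. Gm38352, from 1, 2 and 1 to 8, 7 and 11 (2.06, adjusted p = 0.0233), and Glul (0.76, adjusted p = 0.0401), which encodes glutamine synthetase, were also called higher. For C230024C17Rik, Rgsl1 and Gm38352 the mean of the lower group (2.33, 4.33 and 1.33) was under the filter limit of 5. Each passed the filter only through the group where it is high, so its call is a description only.

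Rgs5 and Rgs4 are separated by 45.7 kb and are transcribed on opposite strands. Besides them, the plot of the locus holds Nuf2, a kinetochore gene, with 41, 82 and 29 in Control and 13, 28 and 13 in Taf4asKO (-1.40, limma adjusted p = 0.0602).

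**Figure D3:**
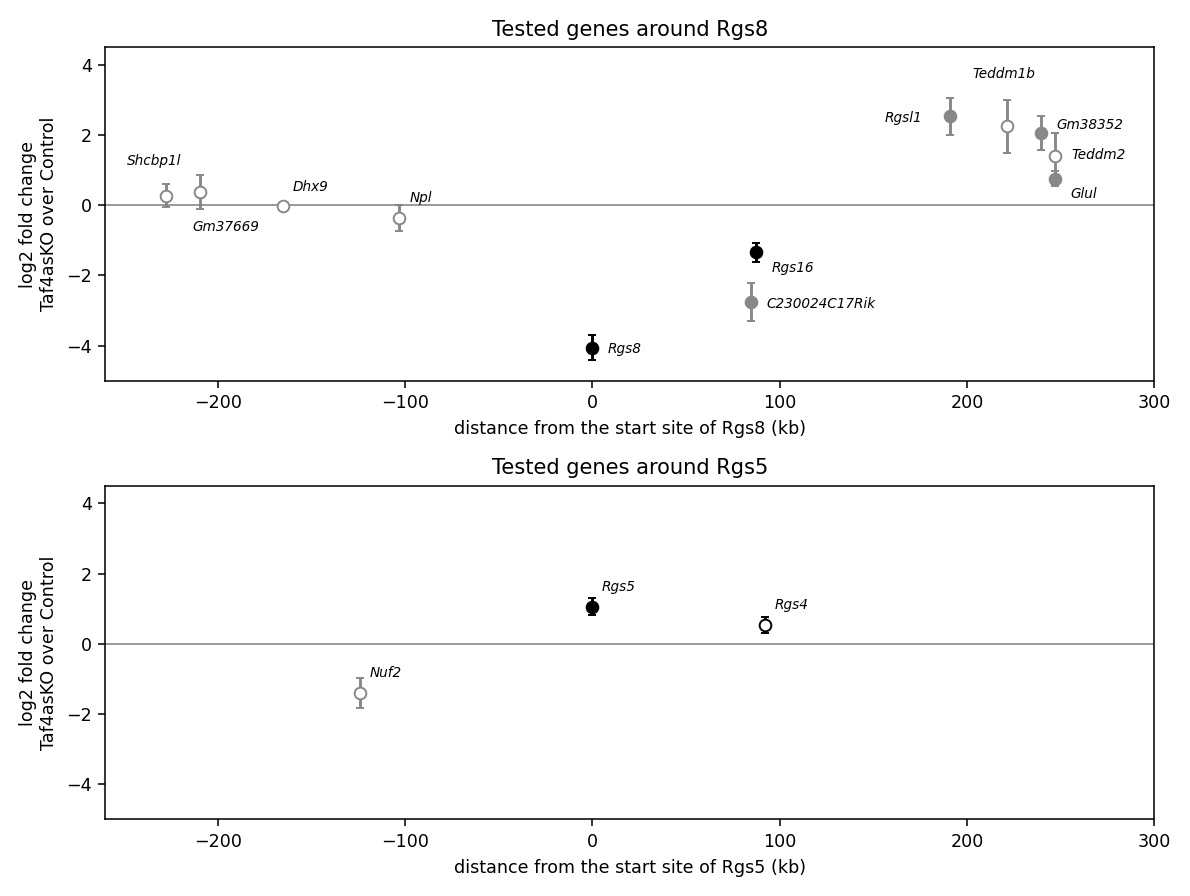
Log2 fold change of Taf4asKO over Control (bars, 1 SE) of tested genes around Rgs8 (upper panel) or Rgs5 (lower panel), against the distance between start sites in kb. Genes were taken if their lower coordinate, on either strand, lay within 250 kb of that of Rgs8 or Rgs5. Black marks members, grey other genes and filled symbols called genes. Rgs8, C230024C17Rik and Rgs16 are called lower, whereas Dhx9 and Npl lie near 0 and Rgsl1 (2.54), Gm38352 (2.06) and Glul (0.76) are called higher. C230024C17Rik, Rgsl1 and Gm38352 each passed the filter on low values only through the group where they are high.

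The genes whose profile was most like that of Rgs8 were found by centring the log2 values of each gene over the 6 libraries and taking the largest difference from Rgs8 in any library. With a mean of at least 20 required, the closest was the transcript Gm830, at most 0.647 from Rgs8 on the log2 scale. Gm830 had levels of 103, 164 and 161 in Control and 11, 15 and 7 in Taf4asKO. Spock1, which encodes a matrix proteoglycan, followed at 0.663 with 325, 941 and 537 in Control and 40, 47 and 28 in Taf4asKO. Hs3st4, a heparan sulfate sulfotransferase, came next at 0.768 with 56, 81 and 39 against 4, 11 and 7. All 3 were picked for this likeness over the same 6 libraries, so their difference between groups is no separate result.

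Because Rgs5 marks mural cells, marker lists were read beside the members. The 8 MuSC markers, among them Pax7, summed to 38984 to 41590 in Control and 39707 to 41607 in Taf4asKO. All 8 were detected in every library, but the sum adds up markers that went opposite ways. Of them 3 (Myf5, Itga7 and Cdh15) were called lower and 2 (Vcam1 and Sdc4) higher. Sdc4 rose from 5564, 5586 and 5814 to 12662, 9579 and 9266. Pax7 was not called, yet its 10669, 10363 and 11164 in Taf4asKO lay below its 12082, 12244 and 13007 in Control. Calls in the marker lists stand beside 6.71% called lower and 5.93% called higher among all genes tested. The 10 mural and smooth muscle markers summed to 25296 to 28973 in Control and 23702 to 28273 in Taf4asKO, with log2 fold changes above 0 for 7 and below 0 for 3 (Acta2, Notch3 and Tagln), and 1 of them, Myh11, was called higher. Notch3, which MuSCs also express, made up a large share of that sum at 15838, 13174 and 17451 in Control and 10737, 12673 and 13457 in Taf4asKO.

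The more restricted pericyte gene Kcnj8 had levels of 49, 133 and 130 in Control and 195, 216 and 195 in Taf4asKO, with no overlap and Control replicate 1 far below the others, as in Rgs5. Pdgfrb had levels of 347, 761 and 1044 in Control and 1004, 1379 and 1162 in Taf4asKO. With the replicate block, 5 mural markers were called higher, Pdgfrb and Kcnj8 among them. Control replicate 1 was the lowest Control library in Rgs5, Kcnj8 and Pdgfrb, but not in the mural markers Acta2, Notch3 and Cnn1. It was also the lowest Control library in the sum of every cell type list, so this was not particular to mural markers. The part of mural cells in the difference of Rgs5 was not tested.

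Sums of 3 other lists did not overlap between the groups and stood higher in Taf4asKO. The 8 endothelial markers summed to 916 to 1382 in Control and 1496 to 1977 in Taf4asKO, with none called (limma, 6 at an unadjusted p under 0.05 and 3 with the block), and none of them at 0. Of the 6 Schwann markers 5 rose and 1 fell, with sums of 1614 to 3612 and 4171 to 5132. The 4 haematopoietic markers analysed summed to 431 to 548 and 670 to 929, but 3 of them had log2 fold changes below 0 and only Lyz2 lay above it. None of these 4 was called (limma, 1 at an unadjusted p under 0.05, and Lyz2 with the block).

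The sums of the 8 fibro-adipogenic markers (9438 to 34248 in Control, 20894 to 38758 in Taf4asKO), of the 5 tenocyte markers (1945 to 13939 and 7039 to 16133) and of the 5 muscle fibre markers (1170 to 3618 and 2045 to 2602) overlapped between the groups. None of the tenocyte markers was called, but 4 were called higher with the replicate block, and the fibro-adipogenic markers went from 1 called lower and 0 higher to 1 lower and 5 higher. Of 12 immediate early genes, which respond within minutes to signals and to cell isolation, 7 rose (9 with the block), beside 5.93% of all genes tested called higher without the block. Their sums were 249422 to 300840 and 387795 to 501983. Their part in the values of signal-induced members such as Rgs2 and Rgs16 was not tested.

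**Figure D4:**
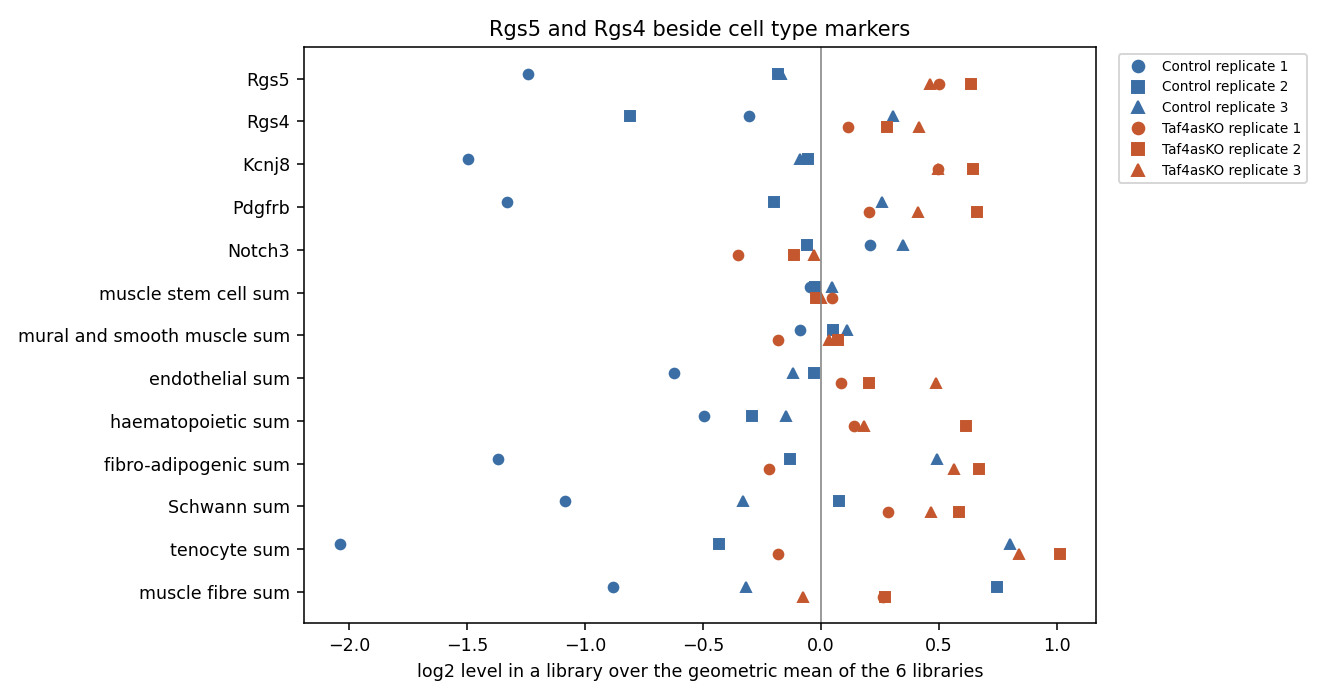
Level of Rgs5, Rgs4, 3 mural markers and the summed normalized counts of the marker lists in each library, as log2 of the ratio to the geometric mean of the 6 libraries (blue, Control; red, Taf4asKO; symbols, replicate numbers). Control replicate 1 stands far to the left in Rgs5, Kcnj8 and Pdgfrb and in most sums of other cell types, while the muscle stem cell sums lie close to 0 in all libraries. The muscle stem cell sum adds markers called higher (Sdc4 and Vcam1) to markers called lower (Myf5, Itga7 and Cdh15).

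The remaining genes of the pathway were taken from lists of receptors, G protein subunits, effectors and regulators. Of 141 listed genes 123 were analysed and 112 tested, of which 7 fell, 10 rose and 95 were not called, beside the 6.71% and 5.93% of all genes tested. The same shares stand beside the count of each list below, and no count is read as a result about a list. Their median log2 fold change was 0.14. With the replicate block 14 fell and 14 rose. The share of all genes called with the block is not given, so this change is not read as a result about the pathway. The number that rose was 5 without Control replicate 1 and 4, 2 and 1 without Taf4asKO replicates 1, 2 and 3.

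Among the alpha subunits, the substrates of RGS proteins, 13 were tested, of which 1 fell and 1 rose (1 and 2 with the block). Gnas, which encodes the stimulatory subunit that most RGS proteins do not act on, fell from 4194, 2804 and 4484 normalized counts to 2429, 2489 and 2489 (log2 fold change -0.60, SE 0.16, limma adjusted p = 0.0321). Gnai3, an inhibitory subunit and a classical RGS substrate, rose from 1102, 1106 and 1012 to 1537, 1332 and 1369 (0.39, SE 0.10, adjusted p = 0.0273). Neither gene overlapped between the groups. Gnas was not called without Control replicate 1 (-0.52) or 3 (-0.47), without Taf4asKO replicate 1 (-0.59), 2 (-0.61) or 3 (-0.61), under total-count scaling (-0.60) or with no intensity trend, and its adjusted p ranged from 0.000970 to 0.135. Gnai3 likewise was not called without Control replicate 1 (0.41) or 3 (0.35), without Taf4asKO replicate 1 (0.33), 2 (0.44) or 3 (0.42), under upper-quartile scaling (0.36) or with no intensity trend, with an adjusted p from 0.0133 to 0.119.

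Of 11 beta and gamma subunits, 2 rose and none fell, while with the block Gng4 was called lower. Gng2 rose from 51, 77 and 59 to 127, 128 and 139 (log2 fold change 1.08, SE 0.20, limma adjusted p = 0.00724) and was called in every alternative. Gng11 rose from 112, 153 and 175 to 207, 238 and 230 (0.64, SE 0.18, adjusted p = 0.0442), but was not called without Control replicate 1 (0.45) or without Taf4asKO replicate 1 (0.69), 2 (0.59) or 3 (0.62) or with no intensity trend, and its adjusted p reached 0.165. None of the 14 effectors, such as adenylyl cyclases and phospholipases C, was called (limma, 3 at an unadjusted p under 0.05, 0 with the block), although Arhgef12 passed the limit on p at 0.30 on the log2 scale (adjusted p = 0.0430) and not that on fold.

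Of 13 receptor kinases, arrestins and other regulators, 1 was called lower and 0 higher (2 and 1 with the block, which added Grk3 and Arrb1). Gpsm1, which holds inhibitory alpha subunits in their GDP-bound form, fell from 1457, 1161 and 1521 to 647, 695 and 578 (log2 fold change -1.10, SE 0.13, limma adjusted p = 0.000761). It remained called in every alternative.

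Of 58 G protein-coupled receptors tested, 5 fell and 6 rose (10 and 8 with the block). Without the block, 6.71% of all genes tested were called lower and 5.93% higher. S1pr3, a receptor for sphingosine 1-phosphate, fell from 1599, 3045 and 2230 to 840, 906 and 877 (log2 fold change -1.34, SE 0.19, limma adjusted p = 0.00212). The beta-1 adrenergic receptor gene Adrb1 fell from 204, 159 and 230 to 71, 72 and 82 (-1.37, SE 0.18, adjusted p = 0.00153). P2ry14, a receptor for UDP-glucose, fell from 84, 69 and 96 to 22, 38 and 34 (-1.40, SE 0.27, adjusted p = 0.00850). All 3 were below the lowest Control value in every Taf4asKO library.

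The neuropeptide Y receptor gene Npy1r rose from 29, 27 and 46 to 71, 86 and 96 (log2 fold change 1.31, SE 0.26, limma adjusted p = 0.0105). The alpha-1 adrenergic receptor gene Adra1a rose from 69, 54 and 72 to 102, 118 and 149 (0.90, SE 0.21, adjusted p = 0.0202), and the vasopressin receptor gene Avpr1a from 13, 14 and 19 to 30, 36 and 31 (1.04, SE 0.30, adjusted p = 0.0455). None of these 3 overlapped between groups. Npy1r was not called without Taf4asKO replicate 2 (1.29) or 3 (1.22), and Adra1a not without Taf4asKO replicate 2 (0.92) or 3 (0.76) or with no intensity trend. Their adjusted p reached 0.0659 and 0.116. Avpr1a was not called without Control replicate 1 (0.94) or 2 (0.99), without Taf4asKO replicate 1 (1.09), 2 (0.96) or 3 (1.07), under either other scaling or with no filter, with an adjusted p of up to 0.173.

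**Figure D5:**
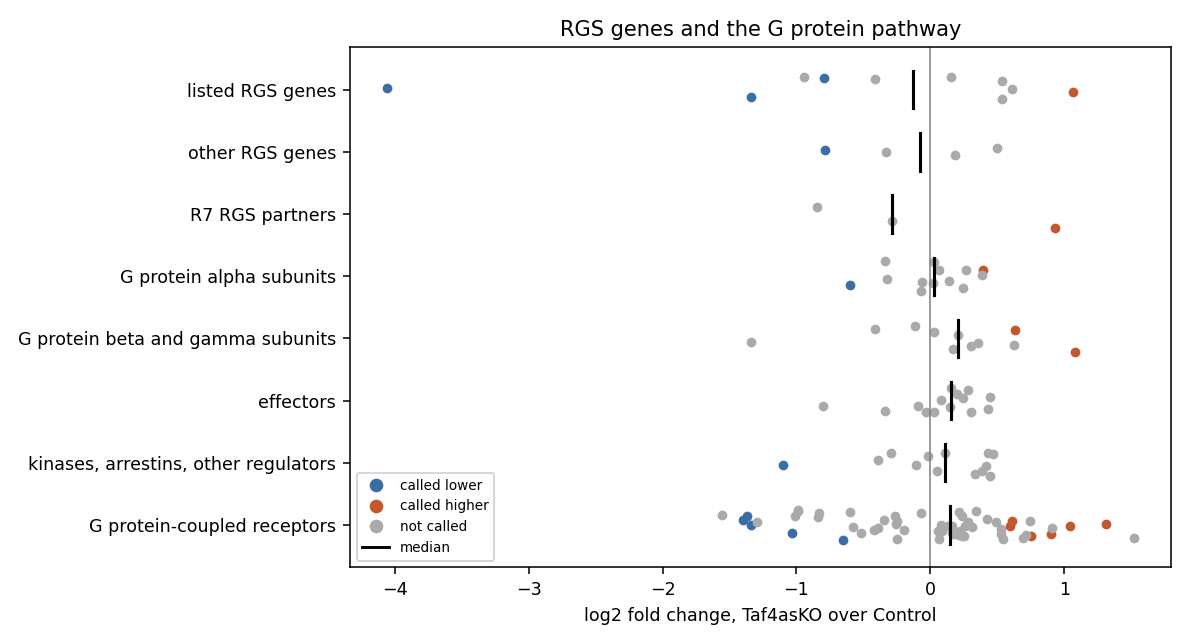
Log2 fold change of Taf4asKO over Control for each tested RGS gene and G protein pathway gene, grouped by role, with blue for genes called lower, red for genes called higher, grey for genes not called and a bar at each group's median; points are spread vertically for legibility. Rgs8 at -4.06 is the lowest value shown, and the pathway lists hold 7 genes called lower and 10 called higher.

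The targeted gene Taf4, the current symbol of Taf4a, had levels of 613, 534 and 478 in Control and 631, 565 and 574 in Taf4asKO (log2 fold change 0.13, SE 0.12, limma adjusted p = 0.524). The table counts the whole gene, so the deleted exons are not seen separately and this total does not tell the labels apart. Total normalized counts lay between 12338676 and 14551732 per library, and the reads behind them were not used here.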

How the data were processed

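RNA-seq was performed on sorted MuSCs in 3 Control and 3 Taf4asKO libraries (SMARTer Stranded Total RNA-Seq Pico kit). Per the submitters' processing notes and the study's methods, single-end reads were trimmed with Trimmomatic 0.39, aligned to mm10 with STAR 2.6.0c, cleared of reads mapping to several places and counted over exons with featureCounts 1.6.0. Reads over several genes were left out, and strand use in counting is not stated. The deposited values are whole numbers, treated as a score. From the study's methods and the values it was inferred that the authors divided each read count by a DESeq2 1.14.1 size factor per library and rounded it (normalized counts). Read depth was therefore not used, and no counting interval is given.

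Genes with a mean of at least 5 were tested on log2(value + 1) with limma 3.58.1 in R 4.3.3 (lmFit, eBayes with an intensity trend, two-sided, Benjamini-Hochberg over 18562 genes, no covariate). Fold changes are on this scale, which understates changes of low genes. The test was checked on simulated data with the same dispersion for all genes. It recovered 97 of 100 genes changed 4-fold and 63 of 100 changed 2-fold, and called 10 unchanged genes. Changes of 2-fold or less can thus be missed. The members and lists were chosen with earlier results of these data known.

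Named genes were the 10 members, other RGS genes analysed, Gnb5 and Rgs7bp, up to 3 called genes per direction and pathway list with a mean of at least 20, the nearest 2 protein-coding genes on each side of Rgs8, genes antisense to a member, the 3 genes most like Rgs8, and Taf4. For the genes around Rgs8, 1 result is not reported here. Any other gene named was picked with its values in view. Replicate numbers come from the titles. Deviations from the group means correlated between same-numbered libraries (r = 0.235, 0.126 and 0.15 across genes), so a fit with the number as a block was used as an alternative. Other alternatives were total-count and upper-quartile scaling, a pseudocount of 0.1, no filter, no intensity trend and leaving out each library. Exon lengths are from GENCODE M21, where 99.8% of identifiers matched. Figures were drawn with matplotlib 3.10.9.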

Additional observations from a re-analysis of the deposited data

How the results depend on the processing

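Over 35 named genes and 12 alternatives each (420 log2 fold changes), 361 kept their direction and their side of the threshold, 53 kept the direction but lost the call, 3 gained a call and 3 changed sign. Those that changed sign were never called: with 1 library left out Rgs20 ranged from -0.4586 (without Control replicate 2) to 0.8031 and Dhx9 from -0.08874 to 0.02492 (above 0 without Control replicate 2 and, at 1.66e-06, without Taf4asKO replicate 3). The number of members called lower (3) was 1 to 3 with 1 library left out, lowest without Taf4asKO replicate 2. The number called higher (1) was 2 with the replicate block and 0 without an intensity trend, and 0 to 2 with 1 library left out: 2 without Control replicate 2 or 3, and 0 without Taf4asKO replicate 1, 2 or 3. For the other RGS genes the number called lower (1) was 0 to 1, and 0 without Control replicate 3 or any 1 of the Taf4asKO libraries. For the pathway the number called lower (7) was 14 with the replicate block and 6 to 8 with 1 library left out. The number called higher (10) was 14 with the block, 4 without an intensity trend and 1 to 13 with 1 library left out, lowest without Taf4asKO replicate 3. Among these 35 genes the block changed only the call of Rgs4. Leaving out a library leaves fewer samples; the cause of the other changes was not tested. Upper-quartile scaling gave 9 pathway genes called lower and 8 higher against 7 and 10. Because the deposited values carry no read depth, differences of a few normalized counts, as in Rgs17 and Npl, could not be set against counting error. The same holds for the gap of 1 normalized count between the groups of Rgs3.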
